A study of Mus musculus with 9 samples.

Results

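The MHC class II genes were followed across 9 arrays of mouse bone marrow progenitors. The set was chosen by name and held 9 genes: the peptide-binding chains H2-Aa, H2-Ab1 and H2-Eb1, the loading factors H2-DMa and H2-DMb1, their modulators H2-Oa and H2-Ob, the invariant chain Cd74 and the transcriptional coactivator Ciita. All probe sets that the platform annotation gives to 1 of these genes alone were taken, which were 16 of the 34945 single-gene probe sets. They covered 8 of the 9 genes: H2-Aa had 4 probe sets, H2-Ab1 and Ciita 3 each, H2-DMa 2, and H2-Eb1, H2-Oa, H2-Ob and Cd74 1 each. H2-DMb1 had none of its own, and 3 further probe sets were shared between a listed gene and a neighbour. Of the 16, 13 exceeded the array median on 3 arrays or more, and the 3 Ciita probe sets did not.

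The groups were E2A-/- mice, Lyl1-/- mice and wild-type (WT) control mice, with 3 arrays each, all of Lineage-CD117+SCA-1+CD135+ bone marrow cells purified by flow cytometry. CD135 is the receptor Flt3, and this phenotype holds multipotent progenitors with lymphoid potential. E2A (gene Tcf3) is an E protein that drives lymphoid genes, and Lyl1 is a basic helix-loop-helix factor that pairs with E proteins. Strain, age, sex and the structure of the null alleles are not given in the sources used here.

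MHC class II molecules are pairs of an alpha and a beta chain that carry peptides from endocytosed proteins to the cell surface, where CD4+ T cells read them. The pair H2-Aa and H2-Ab1 forms I-A, and H2-Eb1 is the beta chain of I-E. In the endoplasmic reticulum the invariant chain Cd74 blocks the groove and directs the pair to endosomes, where H2-DM exchanges its remnant for peptide and H2-O restrains H2-DM. Dendritic cells, B cells and activated macrophages are known for high levels. Class II transcription depends on Ciita, a coactivator that does not bind DNA itself and is recruited by RFX, CREB and NF-Y factors on the X and Y boxes of class II promoters.

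The promoters of these genes are shown because the X and Y boxes are the feature through which class II genes are known to be controlled together. RefSeq promoter windows (build GRCm38.p6, 250 bases before to 50 after a gene start) were at hand for 6 of the 9 genes, all on chromosome 17 and with 2 windows for H2-DMa. H2-Ab1, Cd74 and Ciita are named only. For the X box the letters searched were AAC, any 3 bases, TGA, any 1 base and G in a row, and for the Y box GATTGG, on both strands, and the 2 motifs share no letters in a match. These letters were chosen after these promoters had been seen. Below are 80 bases from 5 windows, 5′ to 3′ on the gene's strand, with matching letters in capitals. They lie at chr17:34305757-34305836 for H2-Eb1 (plus strand), chr17:34287843-34287922 for H2-Aa (minus strand), chr17:34238797-34238876 for H2-Ob (plus strand), chr17:34153079-34153158 for H2-DMb1 (plus strand) and chr17:34092285-34092364 for H2-Oa (plus strand).
H2-Eb1: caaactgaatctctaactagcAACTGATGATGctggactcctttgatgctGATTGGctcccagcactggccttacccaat
H2-Aa: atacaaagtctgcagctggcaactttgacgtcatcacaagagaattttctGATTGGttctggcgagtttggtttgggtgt
H2-Ob: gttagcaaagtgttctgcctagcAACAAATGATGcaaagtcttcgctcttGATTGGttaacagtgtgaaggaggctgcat
H2-DMb1: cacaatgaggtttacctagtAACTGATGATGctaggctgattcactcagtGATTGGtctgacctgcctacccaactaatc
H2-Oa: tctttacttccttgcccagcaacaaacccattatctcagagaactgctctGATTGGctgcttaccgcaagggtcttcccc

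The Y letters began 44 to 62 bases before the gene start in these 5 windows. They were present for all 6 genes with a window, for H2-DMa in only 1 of its 2 windows, and 16.1% of 32851 mouse promoter windows held them. The X letters followed by the Y letters after a gap of 5 to 30 bases were found in H2-Eb1, H2-Ob and H2-DMb1, with 18, 16 and 19 bases between them. This pair was present in 15 of all windows (0.0457%), which belonged to 14 genes, H2-DMb2 among them. A match describes the letters in the window and was not tested as a binding site.

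Several facts of the arrays bear on every value. WT 1 and WT 3 were the closest of all 36 array pairs: the robust spread of their log2 difference at the brightest probe sets was 0.0827, and every other pair had 0.193 to 0.375. Their mean entered as 1 sample, which leaves n = 2 for WT and n = 3 for each knockout. The labels call the samples independent, and p-values measure only the spread between these samples. Intensities are linear values that were already on a common scale, with array medians of 77.9 to 79.3. The lowest intensity on an array was 42.1 to 45.1, far from 0, so log2 differences of dim probe sets are understated. Lyl1 read 79.2 to 92.0 on the Lyl1-/- arrays, against 1352 to 1443 on the WT arrays. Tcf3 read 121.4 to 192.8 on the E2A-/- arrays, against 164.2 to 204.6 on the WT arrays, with its deleted part not known here, so it checks nothing. The gate markers Kit, Flt3 and Cd34 read at least 313.6 on every array, and Ly6a (SCA-1) was not analysed here. Kit was lowest in Lyl1-/- 3 (313.6) and E2A-/- 3 (327.0). All Lyl1-/- arrays lay below the WT range for Kit, 465.3 to 507.7 (log2 difference -0.40, limma adjusted p = 0.834). Flt3 read 671.6, 741.6 and 1136 in Lyl1-/- 1, 2 and 3 and 863.4 in E2A-/- 3, against 1052 to 1302 in WT cells. In sorted bulk cells, fewer cells of a type and less RNA per cell cannot be told apart.

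The alpha chain of I-A varied most within each knockout group, on all of its probe sets but 1452431_s_at. H2-Aa, the alpha chain, had intensities of 643.2, 808.0 and 1629.7 in E2A-/- 1, 2 and 3 and 501.7, 489.3 and 2341.5 in Lyl1-/- 1, 2 and 3, against 763.8, 681.1 and 690.5 in WT 1, 2 and 3 (probe set 1435290_x_at). Array 3 of each knockout was high, and the other 2 lay on either side of the WT values in E2A-/- and below all 3 WT arrays in Lyl1-/-. The log2 difference from WT was 0.43 (SE 0.58, 95% interval -0.84 to 1.70, limma adjusted p = 0.987) in E2A-/- cells and 0.24 (SE 0.58, 95% interval -1.03 to 1.51, limma adjusted p = 0.996) in Lyl1-/- cells.

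The remaining 3 H2-Aa probe sets had the same high arrays. Probe set 1438858_x_at read 407.6, 566.3 and 1065.2 in E2A-/- cells and 307.7, 324.5 and 1639.5 in Lyl1-/- cells, against 472.1, 463.4 and 467.8 in WT cells. Probe set 1443783_x_at read 90.2, 91.8 and 182.3 in E2A-/- cells and 70.5, 74.5 and 201.4 in Lyl1-/- cells, against 83.4, 83.3 and 89.2 in WT cells. Probe set 1452431_s_at read 122.1, 94.3 and 167.6 in E2A-/- cells and 99.0, 104.1 and 185.1 in Lyl1-/- cells, against 107.4, 95.3 and 119.2 in WT cells. On all 4 probe sets Lyl1-/- 3 was the highest array and E2A-/- 3 the next. Probe sets that end in _x_at can contain probes that match other sequences, by the naming scheme of the array maker, and 3 of the 4 for H2-Aa end so.

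H2-Ab1, the beta chain of I-A, read above WT on every Lyl1-/- array. Its probe set 1450648_s_at read 376.2, 301.0 and 505.8 in E2A-/- cells and 392.6, 450.4 and 709.4 in Lyl1-/- cells, against 365.7, 258.7 and 327.9 in WT cells. All 3 Lyl1-/- arrays lay above all 3 WT arrays, while E2A-/- overlapped WT. The log2 difference was 0.37 (SE 0.29, limma adjusted p = 0.944) for E2A-/- cells and 0.74 (SE 0.29, 95% interval 0.12 to 1.37, unadjusted p = 0.0241, limma adjusted p = 0.63) for Lyl1-/- cells.

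The dimmer H2-Ab1 probe sets had the same arrangement. Probe set 1451721_a_at read 152.7, 95.1 and 159.6 in E2A-/- cells and 155.8, 178.6 and 242.2 in Lyl1-/- cells, against 153.6, 76.8 and 145.0 in WT cells. Probe set 1425477_x_at read 119.7, 85.3 and 118.3 in E2A-/- cells and 127.0, 120.9 and 146.6 in Lyl1-/- cells, against 107.4, 79.1 and 103.8 in WT cells. In both, WT 2 and E2A-/- 2 were the lowest arrays, and the 3 Lyl1-/- arrays lay above all 3 WT arrays. For Lyl1-/- against WT the log2 differences were 0.82 (SE 0.29, limma adjusted p = 0.563) and 0.52 (SE 0.17, limma adjusted p = 0.497).

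H2-Eb1, the I-E beta chain (1417025_at), read 180.2, 215.7 and 290.9 in E2A-/- cells and 169.5, 185.5 and 360.2 in Lyl1-/- cells, against 170.1, 133.2 and 182.0 in WT cells. Array 3 of each knockout was again the highest of its group. The E2A-/- arrays lay above both WT samples once WT 1 and WT 3 were averaged, but E2A-/- 1 was below WT 3 alone. The log2 difference from WT was 0.55 in each knockout (SE 0.30, with limma adjusted p = 0.857 for E2A-/- and 0.854 for Lyl1-/-). H2-Ea, the alpha chain that pairs with it, stayed between 100.5 and 122.1 on all 9 arrays.

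Cd74, the invariant chain (1425519_a_at), read 136.0, 154.7 and 158.6 in E2A-/- cells and 105.0, 125.4 and 249.5 in Lyl1-/- cells, against 138.6, 133.2 and 127.0 in WT cells. Lyl1-/- 3 was the only array above 158.6, and the other 2 Lyl1-/- arrays were below every WT array. The log2 difference was 0.17 in E2A-/- cells (SE 0.28, limma adjusted p = 0.987) and 0.16 in Lyl1-/- cells (SE 0.28, limma adjusted p = 0.994).

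**Figure D1:**
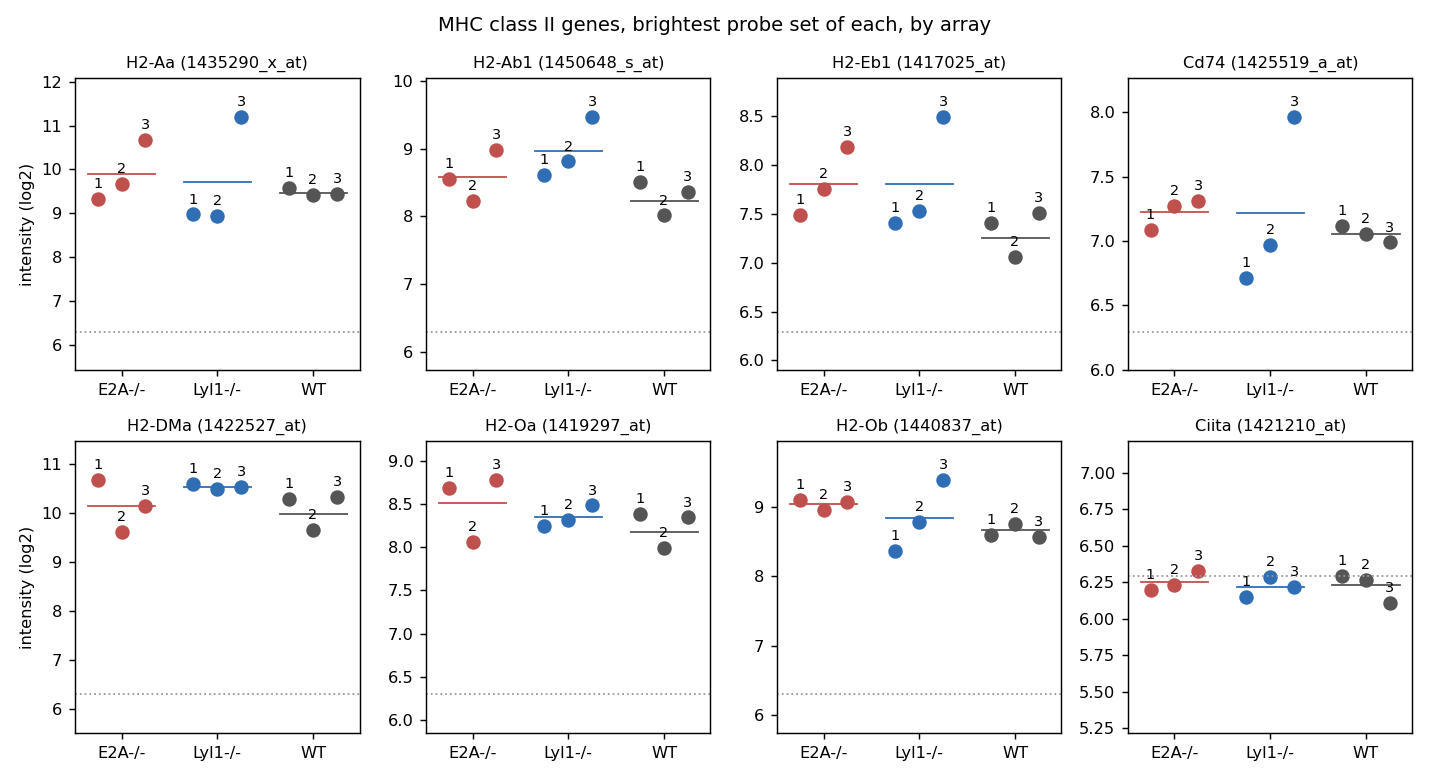
Intensity on a log2 axis (vertical, each panel on its own range of at least 2 units) of the brightest single-gene probe set of each of the 8 measured MHC class II genes, for E2A-/-, Lyl1-/- and WT arrays (horizontal). Numbers are replicate numbers, short lines are group means with WT 1 and WT 3 counted as 1 sample, and the dotted line is the mean array median; for H2-Aa, H2-Eb1 and Cd74 the point Lyl1-/- 3 stands above all others, while H2-DMa is low in E2A-/- 2 and WT 2.

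The 2 probe sets of the loading factor H2-DMa differed in their pattern over the arrays. The bright one, 1422527_at, did not share the high readings of E2A-/- 3 and Lyl1-/- 3 and read 1638.2, 778.3 and 1128.7 in E2A-/- cells and 1538.2, 1431.5 and 1488.6 in Lyl1-/- cells, against 1241.9, 800.6 and 1282.3 in WT cells. The low arrays were E2A-/- 2 and WT 2, and the Lyl1-/- arrays were close together and above all WT arrays. The log2 difference was 0.17 (SE 0.28, limma adjusted p = 0.987) in E2A-/- cells and 0.56 (SE 0.28, limma adjusted p = 0.794) in Lyl1-/- cells. The second H2-DMa probe set, 1459872_x_at, read 213.8, 239.8 and 250.3 in E2A-/- cells and 224.2, 211.4 and 255.1 in Lyl1-/- cells, against 202.6, 188.1 and 171.2 in WT cells. Every knockout array lay above every WT array there, by 0.32 in E2A-/- cells (SE 0.15, limma adjusted p = 0.789) and 0.29 in Lyl1-/- cells (SE 0.15, limma adjusted p = 0.834). Lyl1-/- 3 and E2A-/- 3 were the highest of the 9 arrays on this probe set, and E2A-/- 2 and WT 2 were not the lowest, so the 2 probe sets disagreed.

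Of the H2-O chains, H2-Oa (1419297_at) read 412.6, 268.0 and 440.9 in E2A-/- cells and 303.6, 318.9 and 358.5 in Lyl1-/- cells, against 335.7, 254.3 and 325.6 in WT cells. The groups overlapped, with E2A-/- 2 and WT 2 lowest. H2-Ob (1440837_at) read 548.8, 498.2 and 538.0 in E2A-/- cells and 329.6, 442.9 and 673.8 in Lyl1-/- cells, against 387.5, 434.7 and 380.5 in WT cells. The E2A-/- arrays were close together and above all WT arrays, by 0.37 on the log2 scale (SE 0.26, limma adjusted p = 0.925), whereas the Lyl1-/- arrays lay on both sides of WT.

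Ciita, the coactivator of the class II promoters, was about at or below the array median of 77.9 to 79.3 with little spread. Its highest reading over 3 probe sets was 80.2, in E2A-/- 3. Probe set 1421210_at read 73.3, 75.1 and 80.2 in E2A-/- cells and 70.9, 77.9 and 74.5 in Lyl1-/- cells, against 78.5, 77.0 and 69.0 in WT cells. The other 2 ranged from 55.8 to 77.6 in E2A-/- cells and from 56.8 to 73.4 in Lyl1-/- cells, against 55.1 to 75.1 in WT cells. At this signal a difference in Ciita was not detectable.

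No MHC class II probe set passed the threshold (limma adjusted p under 0.05 over all 34945 probe sets) in E2A-/- against WT, 0 of 16, where 66 of all probe sets did (0.189%). At an unadjusted p under 0.05 the count was also 0 of 16, against 6.45% of all. The differences were above 0 for 15 of 16, with a median of 0.31 and a range of -0.04 to 0.55, where 51.9% of all probe sets were above 0. In 5 of 16 every E2A-/- array lay above both WT samples, against 10.6% of all probe sets: H2-Ob, H2-Eb1, Cd74, H2-Aa 1443783_x_at and H2-DMa 1459872_x_at. For H2-Eb1 and Cd74 this held only with WT 1 and WT 3 averaged.

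In Lyl1-/- against WT again 0 of 16 passed, where 70 of all did (0.2%). The 3 H2-Ab1 probe sets had an unadjusted p under 0.05 and were higher, 3 of 16, where 2.77% of all were. Without WT 2, which leaves 1 WT sample, the count was 0 of 16 (3.26% of all in either direction), and the H2-Ab1 differences were 0.31, 0.53 and 0.34 (1425477_x_at, 1450648_s_at and 1451721_a_at), against 0.52, 0.74 and 0.82 with it. Of the 16 differences 15 were above 0, with a median of 0.25 and a range of -0.02 to 0.82, where 51.7% of all were above 0. In 5 of 16 every Lyl1-/- array lay above both WT samples, against 11.9% of all probe sets: the 3 of H2-Ab1 and the 2 of H2-DMa. Both comparisons use the same WT samples, so their common sign is not counted as 2 results.

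E2A-/- cells were also set against Lyl1-/- cells, and 0 of 16 probe sets passed, where 20 of all did (0.0572%), with 0 of 16 at an unadjusted p under 0.05 (6.43% of all). The median difference was 0.02, with 10 of 16 above 0 (49.7% of all). The H2-Ab1 differences were -0.30, -0.38 and -0.51 (SE 0.15 to 0.26, limma adjusted p = 0.799 to 0.877). In 2 of 16, H2-Ab1 1425477_x_at and Ciita 1447075_at, every E2A-/- array lay below every Lyl1-/- array, as 5.24% of all did.

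**Figure D2:**
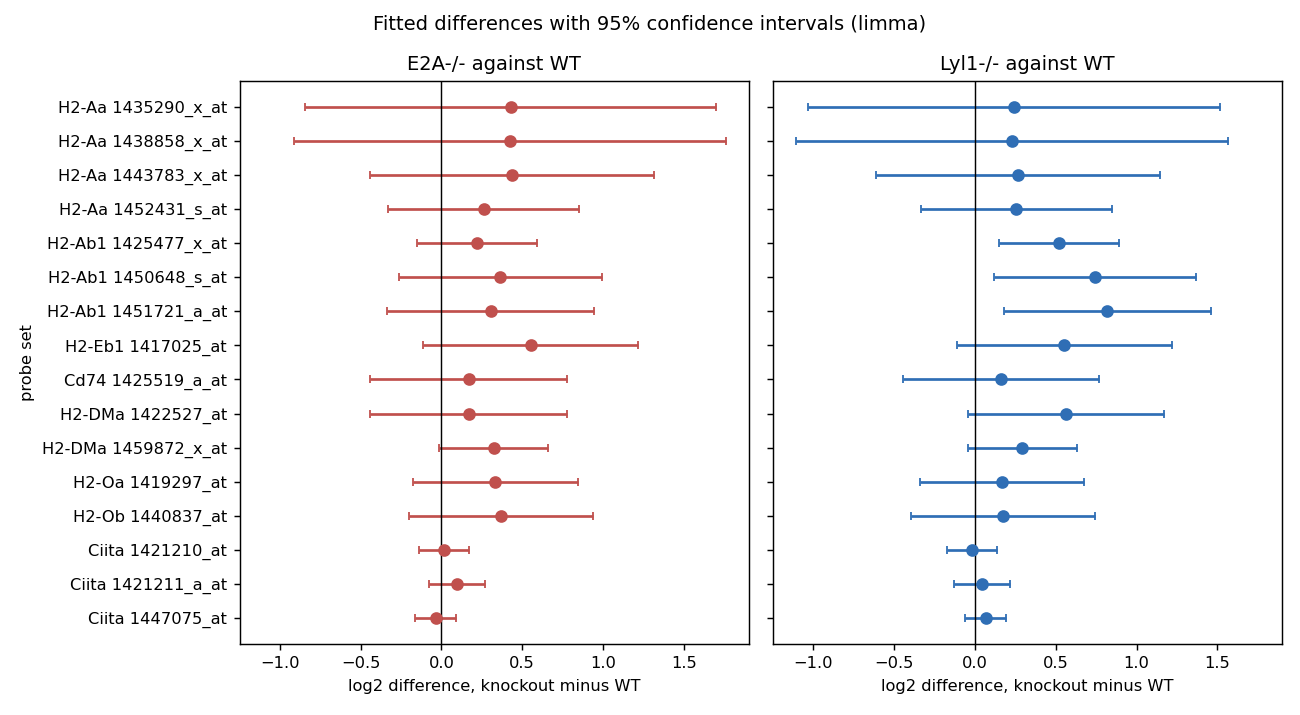
Fitted log2 difference from WT (horizontal) of each of the 16 MHC class II probe sets (vertical), with 95% intervals from limma, for E2A-/- and Lyl1-/- cells. All but the intervals of the 3 H2-Ab1 probe sets in Lyl1-/- cells cross 0, and the widest intervals are those of H2-Aa 1438858_x_at, 1435290_x_at and 1443783_x_at.

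The positive medians were uneven over the replicates. Measured from the WT mean, the median MHC class II difference on each array was 0.21, 0.0028 and 0.50 in E2A-/- 1, 2 and 3 and 0.0092, 0.083 and 0.78 in Lyl1-/- 1, 2 and 3, against 0.087, -0.077 and 0.13 in WT 1, 2 and 3. The level in E2A-/- 2 and in Lyl1-/- 1 and 2 was inside the range of the WT arrays, and E2A-/- 1, E2A-/- 3 and Lyl1-/- 3 were above it. The median over all probe sets stayed between -0.0061 and 0.0094 on every array.

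The Lyl1-/- median rested largely on Lyl1-/- 3. That array was the highest of all 9 arrays in 12 of 16 probe sets, where it was so in 14.8% of all probe sets, and over 2-fold above the WT mean in 6 of 16, against 0.1% of all. Set against the mean of Lyl1-/- 1 and 2, it was higher in 16 of 16 probe sets (52.3% of all), by a median of 0.65 on the log2 scale. The fold was 4.73, 5.19, 2.78 and 1.82 for the 4 H2-Aa probe sets, 2.17 for Cd74, 2.03 for H2-Eb1 and 1.76 for H2-Ob. It was 1.18 to 1.69 for H2-Ab1, 1.15 for H2-Oa, and 1.00 and 1.17 for H2-DMa. Replicates have no order, and the array was singled out after its values were seen.

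The within-group spread puts H2-Aa at the far end of the array. The SD of H2-Aa 1438858_x_at over the 3 Lyl1-/- arrays was 1.37 on the log2 scale, and 0.0114% of all probe sets had one at least as large. For Cd74 the SD was 0.66 (0.132% of all) and for H2-Eb1 0.59 (0.189%), whereas H2-DMa 1422527_at had an SD of 0.05, and 75.1% of all probe sets varied at least as much.

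Without Lyl1-/- 3, the mean of the other 2 Lyl1-/- arrays was above WT in 9 of 16 probe sets, with a median of 0.02. The share of all probe sets was not taken for that mean. With all 3 Lyl1-/- arrays it was 51.7%, which 9 of 16 is near. Leaving out Lyl1-/- 1 or Lyl1-/- 2 in its place gave medians of 0.48 and 0.44. The genes divided without Lyl1-/- 3. H2-Ab1 lay 0.44 to 0.64 above WT and H2-DMa 0.56 and 0.22 above, and H2-Eb1 0.21, while H2-Aa lay at -0.51, -0.56, -0.23 and -0.03 and Cd74 at -0.21. For 3 of the 4 H2-Aa probe sets, the 2 chains of I-A thus stood on opposite sides of WT in Lyl1-/- 1 and 2, and on the other, 1452431_s_at, both arrays lay inside the WT range. Those 3 all end in _x_at and can contain probes that match other sequences, so the opposite sides rest on such probe sets alone.

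In the E2A-/- group array 3 was also the highest in 12 of 16 probe sets (38.1% of all), but the gap was smaller. E2A-/- 3 was above the mean of E2A-/- 1 and 2 in 14 of 16 (51.8% of all), by a median of 0.32, with folds of 2.26, 2.22, 2.00 and 1.56 for H2-Aa, 1.48 for H2-Eb1, 1.17, 1.32 and 1.503 for H2-Ab1 and 1.09 for Cd74. The mean of E2A-/- 1 and 2 was above WT in 14 of 16, with a median of 0.14. The share of all probe sets was not taken for that mean, and with all 3 E2A-/- arrays it was 51.9%. H2-Ob and H2-Eb1 were at 0.36 in that mean, and H2-Aa at 0.04 to 0.10.

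WT 2 was the low array of its group for part of the set. It was below the mean of WT 1 and WT 3 in 12 of 16 probe sets (50.4% of all), at 51.5% to 74.9% of it for H2-Ab1, 63.4% for H2-DMa 1422527_at, 75.7% for H2-Eb1 and 76.9% for H2-Oa, but at 100.4% for Cd74. Without WT 2 the median E2A-/- difference was 0.15, that of H2-Eb1 was 0.35 in each knockout, and that of H2-DMa 1422527_at in Lyl1-/- cells was 0.24. Among the 13 brighter probe sets 3 signs turned: H2-DMa 1422527_at was -0.16 and H2-Ab1 1451721_a_at -0.17 in E2A-/- cells, and H2-Oa was -0.02 in Lyl1-/- cells.

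**Figure D3:**
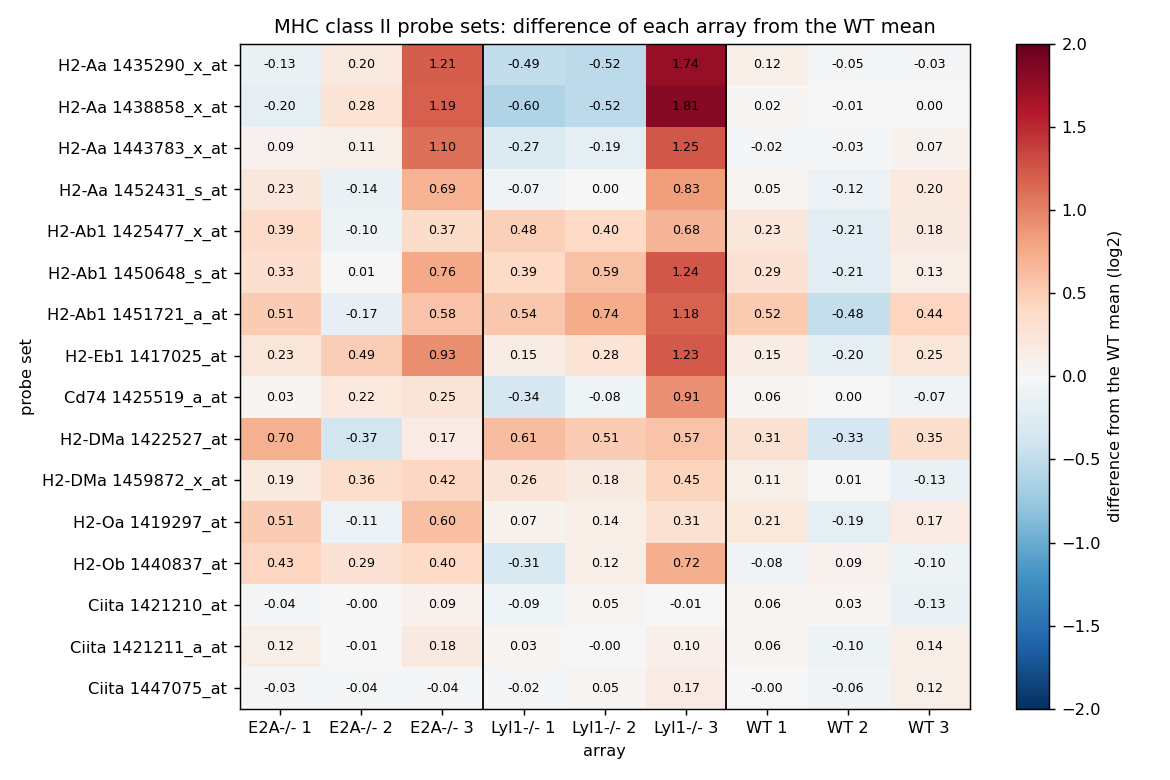
Log2 difference from the WT mean (colour, 0 in the centre) of each of the 16 MHC class II probe sets (vertical) on each array (horizontal, E2A-/-, Lyl1-/- and WT). The strongest colours are those of H2-Aa 1435290_x_at and 1438858_x_at in Lyl1-/- 3, and Lyl1-/- 1 and 2 have the opposite sign for 3 of the 4 H2-Aa probe sets.

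Some array measures moved with part of these values. The actin 3-prime over 5-prime ratio, which rises as RNA or labelling gets shorter, was 10.1 in E2A-/- 2 and 10.6 in WT 2, against 2.85 to 4.23 on the other 7 arrays; these were the low arrays for H2-DMa 1422527_at, the 3 H2-Ab1 probe sets and H2-Oa, but not for H2-DMa 1459872_x_at. The hybridisation spikes had a geometric mean intensity of 1201, 1719 and 3194 in E2A-/- 1, 2 and 3 and 2295, 1859 and 2633 in Lyl1-/- 1, 2 and 3, against 1295 to 1388 in WT. Array 3 of each knockout was thus the highest of its group in spikes too. The order of the others differed: E2A-/- 1 had lower spikes than E2A-/- 2, and Lyl1-/- 2 lower than Lyl1-/- 1, but higher class II medians. Xist, which coats an inactive X chromosome, had signal on 3 arrays: E2A-/- 2 (2362), Lyl1-/- 1 (2011) and Lyl1-/- 2 (2001). All others, WT included, read at most 103.7. The knockout arrays with Xist signal had class II medians of 0.0028, 0.0092 and 0.083, and those without it 0.21, 0.50 and 0.78. With sex by Xist as a covariate the median was 0.49 for E2A-/- and 0.75 for Lyl1-/- against WT, with 7 of 16 at an unadjusted p under 0.05 in each, where 6.58% of all probe sets were for E2A-/- and 7.35% for Lyl1-/-, and 0 past the limma threshold. Lyl1-/- 3 was the only Lyl1-/- array without Xist signal, and E2A-/- 2 the only E2A-/- array with it. Within each knockout, sex thus cannot be told apart from that single array. The part of these measures in the class II values was not tested.

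**Figure D4:**
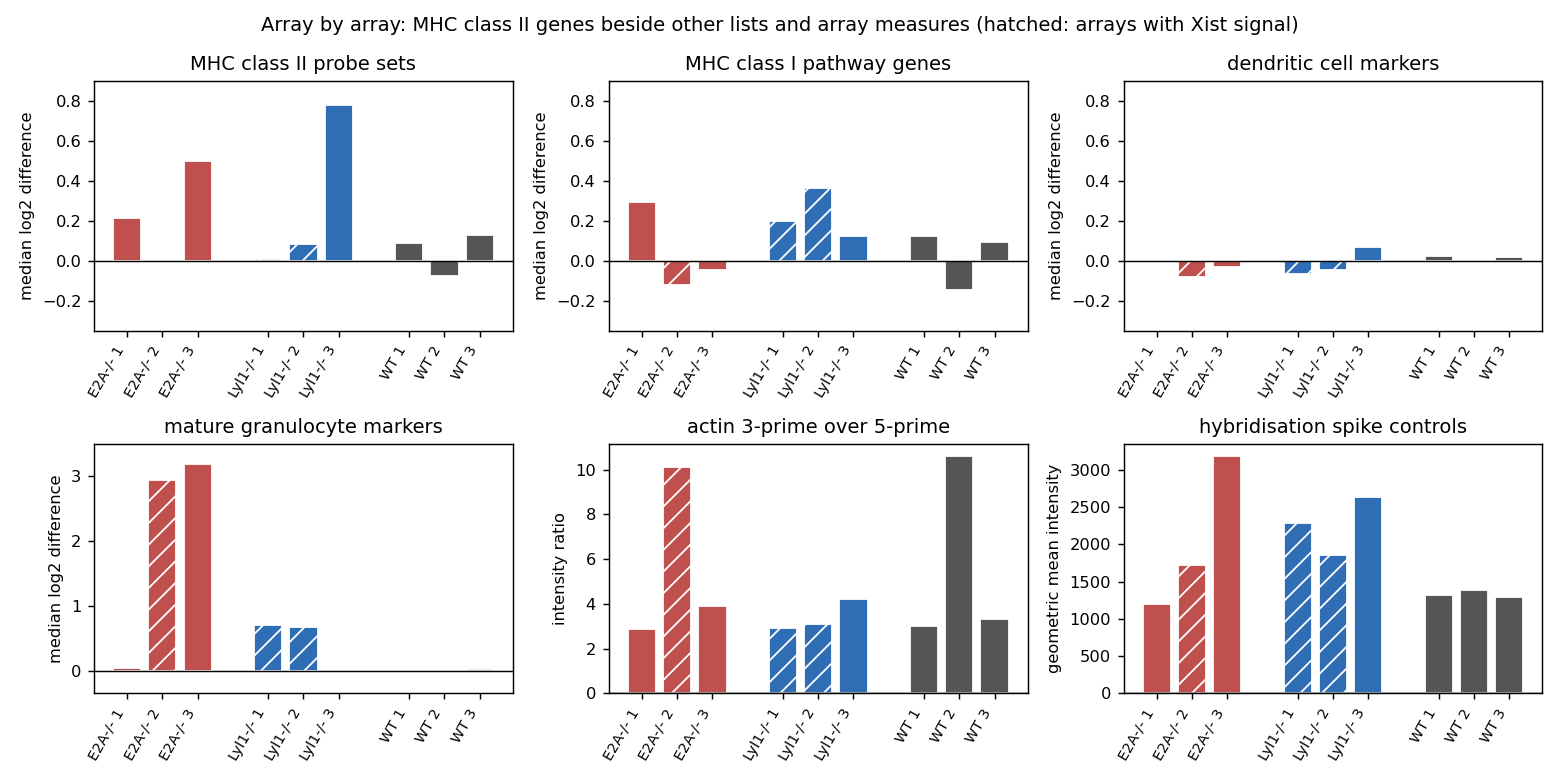
Array measures (vertical axes) on each E2A-/-, Lyl1-/- and WT array (horizontal), with hatched bars for the 3 arrays with Xist signal. Panels are the median log2 difference from the WT mean of the MHC class II probe sets, MHC class I pathway genes, dendritic cell markers and mature granulocyte markers, the actin 3-prime over 5-prime ratio, and the geometric mean intensity of the hybridisation spikes. The 2 high actin ratios are E2A-/- 2 and WT 2, and the class II medians of E2A-/- 3 and Lyl1-/- 3, 0.50 and 0.78, are the highest.

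Markers of cells known for high class II levels, and of other cells, were read on the same arrays. The dendritic cell list (10 of 12 genes measured) had a summed intensity of 928 to 1051 in E2A-/- and 1039 to 1087 in Lyl1-/- cells, against 1046 to 1067 in WT cells. Over all 9 arrays this list summed highest in Lyl1-/- 3. Its defining genes Itgax and Zbtb46 read 84.0 to 101.3 and 82.6 to 90.1 in E2A-/- cells and 87.7 to 110.7 and 83.9 to 88.8 in Lyl1-/- cells, against 88.0 to 92.9 and 80.9 to 86.7 in WT cells. These are near the array median, with Itgax highest in Lyl1-/- 3. Other genes of the list differed more. Ccr9 read 63.5 to 65.1 in E2A-/- cells and 64.0, 55.8 and 149.9 in Lyl1-/- 1, 2 and 3, against 82.7, 171.7 and 85.9 in WT 1, 2 and 3. Bst2 was above WT on every Lyl1-/- array (log2 difference 0.49, limma adjusted p = 0.73), and Clec10a was below (-0.40, limma adjusted p = 0.576). The B cell list (9 of 11) summed to 897 to 993 in E2A-/- and 963 to 1154 in Lyl1-/- cells, against 945 to 1052 in WT cells. It too summed highest in Lyl1-/- 3 of all 9 arrays. Cd79a and Ms4a1 stayed at 59.1 to 75.2 on every array, below the array median. Cd79b read 155.2 to 225.7 in E2A-/- cells and 318.7, 229.9 and 261.3 in Lyl1-/- 1, 2 and 3, against 173.4 to 194.4 in WT cells. Every Lyl1-/- array was above WT for Cd79b (log2 difference 0.56, limma adjusted p = 0.549). Cd72 read 253.5 to 305.3 in E2A-/- cells and 262.8, 256.6 and 395.0 in Lyl1-/- 1, 2 and 3, against 326.2, 392.4 and 277.9 in WT 1, 2 and 3. Its highest array was Lyl1-/- 3, closely followed by WT 2. The monocyte and macrophage list (12 of 13) summed to 1783 to 2662 in E2A-/- and 2235 to 3213 in Lyl1-/- cells, against 1601 to 2081 in WT cells. Its sum was highest in E2A-/- 3 among the E2A-/- arrays and lowest in Lyl1-/- 3 among the Lyl1-/- arrays, and Adgre1 read 72.1 to 85.0 on all arrays. Csf1r read 424.9, 330.0 and 680.7 in E2A-/- cells and 1310, 1117 and 531.5 in Lyl1-/- cells, against 289.9 to 383.5 in WT cells (log2 difference 1.47 in Lyl1-/-, limma adjusted p = 0.306). Cd68 read 234.8, 140.3 and 213.7 in E2A-/- cells and 277.7, 254.7 and 122.9 in Lyl1-/- cells, against 96.2 to 132.8 in WT cells (0.76 and 0.86, limma adjusted p = 0.729 and 0.615). The mature granulocyte list (10 of 12) summed to 1213, 16165 and 18373 in E2A-/- 1, 2 and 3 and to 2837, 2320 and 1331 in Lyl1-/- 1, 2 and 3, against 1338 to 1521 in WT cells. It was high in E2A-/- 2, whose class II median was near 0, and lowest in Lyl1-/- 3 among the Lyl1-/- arrays. The mature erythroid list (4 of 7) summed to 383.6, 520.6 and 1037 in E2A-/- 1, 2 and 3 and to 294 to 333 in Lyl1-/- cells, against 331 to 406 in WT cells, and was highest in E2A-/- 3, where Slc4a1 read 735.7. The plasma cell list (5 of 6) summed to 1646 to 1802 in E2A-/- and 1409 to 1983 in Lyl1-/- cells, against 1542 to 1945 in WT cells. Most of that sum was Xbp1, at 1028 to 1646 on all arrays. Its gene Sdc1 read 399.9 to 411.6 in E2A-/- and 93.1 to 155.8 in Lyl1-/- cells, against 194.2 to 247.1 in WT cells. Between the knockouts the Sdc1 difference was 1.78 (limma adjusted p = 0.00319). The T and NK cell list (7 of 10) summed to 1521 to 1996 in E2A-/- and 1289 to 1417 in Lyl1-/- cells, against 1154 to 1402 in WT cells. Nkg7 alone read 1032 to 1513 in E2A-/- and 799.5 to 953.8 in Lyl1-/- cells, against 658.9 to 918.1 in WT cells. The other measured genes of that list read 56.3 to 120.1 on every array. The stromal and endothelial list (7 of 7) summed to 478.3 to 522.3 in E2A-/- and 495.35 to 503.99 in Lyl1-/- cells, against 486.1 to 877.3 in WT cells, with WT 2 the highest. In WT 2 Col1a2 read 414.7 and Col1a1 129.8, and on the other arrays either read at most 101.6. The part of other cells in the class II values was not tested.

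The genes around class II presentation did not pass the threshold in either comparison with WT. Of all probe sets 0.189% passed for E2A-/- and 0.2% for Lyl1-/-. Counts of 0 thus say little for lists as short as these and those that follow. Of other class II genes, 0 of 3 measured passed in either direction: H2-DMb2, a second DM beta chain, differed by 0.21 in E2A-/- (limma adjusted p = 0.928) and 0.11 in Lyl1-/- cells (limma adjusted p = 0.989), and H2-Eb2 read 76.3 to 104.2 on all arrays. H2-Eb2 and H2-DMb2 were highest in Lyl1-/- 3, at 104.2 and 149.3, the latter beside 147.7 in E2A-/- 2. H2-Ea read 105.7 in Lyl1-/- 3, the lowest of its group. The median of this list from WT was highest in Lyl1-/- 3 (0.28) and next in E2A-/- 3 (0.14). Of the X and Y box factors, 0 of 7 passed, with a median of -0.03 in E2A-/- and -0.16 in Lyl1-/- cells. Rfxank, an RFX subunit, read 125.0, 121.8 and 132.6 in E2A-/- cells and 151.5, 142.5 and 136.2 in Lyl1-/- cells, against 171.4, 147.7 and 174.4 in WT cells, and E2A-/- cells differed by -0.34 (limma adjusted p = 0.598). Rfx5, the DNA-binding RFX subunit, was at 0.05 in E2A-/- and -0.27 in Lyl1-/- cells, Rfxap at -0.09 and -0.19, and the NF-Y subunit Nfyc at -0.39 and -0.34. The lowest readings of Rfx5 and Rfxap, 222.8 and 171.4, were those of Lyl1-/- 3.

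Of genes known to act upstream of Ciita, 0 of 13 measured passed, with medians of -0.08 in E2A-/- and 0.09 in Lyl1-/- cells. Ifngr1, a chain of the interferon gamma receptor, read 245.6, 309.1 and 273.0 in E2A-/- cells and 256.2, 244.0 and 226.8 in Lyl1-/- cells, against 224.6, 137.7 and 207.2 in WT cells. Every knockout array lay above every WT array, by 0.67 in E2A-/- (SE 0.20, limma adjusted p = 0.419) and 0.49 in Lyl1-/- cells (SE 0.20, limma adjusted p = 0.679), with WT 2 lowest. Its partner chain Ifngr2 was at -0.20 in E2A-/- and -0.50 in Lyl1-/- cells. Irf8, a factor of dendritic and monocyte precursors, read 413.6 to 615.9 in E2A-/- cells and 444.7 to 580.5 in Lyl1-/- cells, against 500.0, 215.9 and 513.5 in WT 1, 2 and 3; its differences were 0.64 and 0.58, with WT 2 the low reading. Spi1 (PU.1) was at -0.23 in E2A-/- and 0.47 in Lyl1-/- cells.

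Of class II processing and turnover genes, 0 of 13 measured passed. Ctss, the cathepsin that trims the invariant chain, read 795.2, 940.2 and 894.3 in E2A-/- cells and 292.2, 361.2 and 609.1 in Lyl1-/- cells, against 893.6, 738.8 and 816.4 in WT cells. All Lyl1-/- arrays lay below all WT arrays, the log2 difference being -0.99 (limma adjusted p = 0.345, SE 0.27), and within that group Lyl1-/- 3 was highest, as for the class II chains. E2A-/- differed from WT by 0.14 and from Lyl1-/- by 1.13 (SE 0.24, limma adjusted p = 0.259). Ifi30, the lysosomal thiol reductase that unfolds antigens, read 203.1 to 306.8 in E2A-/- and 226.7 to 274.3 in Lyl1-/- cells, against 171.0 to 178.0 in WT cells, by 0.43 (limma adjusted p = 0.77) and 0.51 (limma adjusted p = 0.615). Ctsz, another cathepsin, was at 0.53 and 0.66, and Marchf8, a ubiquitin ligase of class II molecules, at 0.06 and -0.25.

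Of the MHC class I pathway 0 of 15 measured passed, with medians of 0.07 in E2A-/- and 0.17 in Lyl1-/- cells. B2m, the light chain of class I, read 4245, 4278 and 3407 in E2A-/- cells and 4370, 4692 and 3984 in Lyl1-/- cells, against 5643, 5788 and 6011 in WT cells. Every knockout array lay below every WT array, with log2 differences of -0.55 in E2A-/- (SE 0.11, limma adjusted p = 0.107) and -0.42 in Lyl1-/- cells (SE 0.11, limma adjusted p = 0.322), and array 3 was the lowest of each knockout. The immunoproteasome subunit Psmb9 was at 0.37 in E2A-/- and 0.83 in Lyl1-/- cells (SE 0.25, limma adjusted p = 0.45), Psmb8 at 0.35 and 0.84, and the peptide transporter subunit Tap2 at 0.52 and 0.99, with WT 2 the lowest array in all 3. Their Lyl1-/- 3 readings, 1001 for Psmb9, 931.8 for Psmb8 and 406.6 for Tap2, were the lowest of the Lyl1-/- arrays.

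The genes whose profile was most like the mean of the 13 brighter MHC class II probe sets were ranked by Pearson's r over the 8 samples among 11944 genes, as a description. They were Sox14 (r = 0.984), Mpeg1 (0.966), Kcna7 (0.964), Snorc (0.961), 4930591A17Rik (0.947), Aanat (0.935), Gfra4 (0.933) and Art5 (0.932). Mpeg1, a pore-forming protein of phagocytes, read 250.9, 167.1 and 286.5 in E2A-/- cells and 165.0, 184.9 and 394.0 in Lyl1-/- cells, against 174.4, 132.9 and 157.6 in WT cells, with the same 2 highest arrays as H2-Aa. E2A-/- 1 and Lyl1-/- 2 were also above every WT array for Mpeg1, whereas both were below every WT array for H2-Aa 1435290_x_at. The other 7 of these 8 genes read at most 133.9 on any array. The points share arrays and scaling, and 2 of the 8 lie far from the rest.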

How the data were processed

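Total RNA was labelled with biotin and hybridised to Affymetrix 3-prime arrays, per the labels' protocols. The deposited values are 1 linear intensity per probe set and array; RMA and oligo are named in the submitters' processing notes, with no version. No source used here says if background was removed. From the deposited intensities log2 was taken, with no pseudocount. The number of arrays limits the precision. Of 45101 probe sets, 64 controls, 932 with several genes and 9160 with none in GEO's platform annotation were left out of the tests. Of the rest, 34741 had an Entrez identifier in the RefSeq table (GRCm38.p6) and 0 symbols changed.

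A linear model of the 3 genotypes was fitted to 8 samples (5 residual degrees of freedom, WT 1 and WT 3 averaged) with lmFit and eBayes (intensity trend) of limma 3.58.1 in R 4.3.3, over 34945 probe sets without a filter. Adjusted p-values are Benjamini-Hochberg values over all of them, with a threshold of 0.05. The code was tested on simulated data. Differences are the first group minus the second.

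The members, gene lists and alternatives were chosen with earlier results of these data known. Named were all single-gene probe sets of the members, up to 4 genes per pathway list with the smallest p against WT (all of the other class II genes), the targeted, Xist and gate genes, and the 8 genes most correlated with the class II mean. Other genes named were chosen after their values were seen, including the markers Itgax, Zbtb46, Ccr9, Bst2, Clec10a, Cd79a, Cd79b, Cd72, Ms4a1, Adgre1, Csf1r, Cd68 and Slc4a1. The same holds for Xbp1, Sdc1, Nkg7, Col1a1 and Col1a2. List genes were read at their brightest probe set. Whether replicate numbers pair the samples could not be decided with so few arrays per group, and the main fit used no pairing. Correlations of same-numbered deviations ran from -0.136 to 0.252. In 8 of 18 checks a sample correlated best with its own number, where chance gives 6. Alternatives were other scalings, filters, features, samples, a sex covariate and a replicate block.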

Additional observations from a re-analysis of the deposited data

Results flagged for a closer look

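Signal appeared in probe sets that stood outside the tests because the annotation gives them to both H2-DMb1 and H2-DMb2, the DM beta chains, which cannot be told apart there. They were read after the other values had been seen. Probe set 1418638_at read 179.5, 177.6 and 177.5 in E2A-/- cells and 187.6, 180.9 and 221.1 in Lyl1-/- cells, against 162.4, 169.7 and 164.7 in WT cells. Every knockout array lay above every WT array, with a log2 difference of 0.10 in E2A-/- cells and 0.23 in Lyl1-/- cells. Probe set 1449580_s_at read 160.5, 127.6 and 148.0 in E2A-/- cells and 162.5, 172.1 and 178.4 in Lyl1-/- cells, against 150.9, 115.4 and 150.7 in WT cells. There only the Lyl1-/- arrays were all above the WT arrays, by 0.37. These differences were not tested. The shared probe set of H2-Ob and Gm20506, 1422201_at, read 149.6, 110.7 and 117.2 in E2A-/- cells and 117.1, 127.0 and 122.0 in Lyl1-/- cells, against 120.6, 105.9 and 111.5 in WT cells. Both knockouts overlapped WT, and Lyl1-/- 3 was not the highest Lyl1-/- array there, unlike for H2-Ob 1440837_at.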

How the results depend on the processing

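Under each of 24 alternatives (22 planned, 2 chosen after seeing the data), 0 of the 16 MHC class II probe sets passed the limma threshold in any of the 3 comparisons. The smallest adjusted p over the members was 0.363 for E2A-/- against WT, 0.0996 for Lyl1-/- against WT and 0.29 between the knockouts. The first 2 came from the replicate block, which calls 179, 140 and 29 of all probe sets in the 3 comparisons, against 66, 70 and 20 reported; it also takes the 9 arrays as separate samples, which alone gives 184, 169 and 30. Of 18 checks, 8 had a sample correlate best with its own number, where chance gives 6. Over all alternatives the counts of all probe sets ran from 20 to 184, 20 to 169 and 7 to 38. Other low counts were 32 and 37 of all probe sets against WT without the intensity trend, 30 and 28 with WT 2 left out, 20 for Lyl1-/- with the sex covariate, and 22 and 26 for Lyl1-/- without Lyl1-/- 1 or 2.

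The median class II difference ranged from 0.14 to 0.49 in E2A-/- and from 0.02 to 0.75 in Lyl1-/- cells. The value 0.75 came with sex as a covariate; leaving out single arrays gave 0.14 to 0.45, 0.02 to 0.48 and, between the knockouts, -0.18 to 0.17. Of 29 single differences, 20 kept their sign. Without Lyl1-/- 3, or without both arrays numbered 3, Lyl1-/- against WT gave -0.51, -0.56, -0.23 and -0.032 for H2-Aa, -0.21 for Cd74 and -0.10 for H2-Ob; leaving out single arrays gave upper ends of 0.62, 0.64, 0.53, 0.42, 0.41 and 0.42. H2-Oa ran from -0.019 (without WT 2, also with E2A-/- 2 left out) to 0.22. In E2A-/- cells H2-DMa 1422527_at ran from -0.16 without WT 2, with -0.10 without E2A-/- 1, to 0.44, and H2-Ab1 1451721_a_at from -0.17 to 0.54. Fits with 1 WT sample take its spread from the other groups.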
